A study of Ovis aries with 41 samples.

Results

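Skin from the tip of the tail was compared with skin from its base in 3 rams of the Improved Jezersko-Solčava breed that were homozygous for the derived allele of HOXB13 (D/D). The comparison used 12 of the 41 RNA-seq libraries of the series, chosen by genotype and position alone, with 2 libraries from the tip and 2 from the base of each of rams 871787, 871868 and 871869. Both libraries from the same ram and position were added up, which left 6 of 21 ram sums, and the tip of each ram was paired with its own base, so that the ram is the replicate (n = 3 throughout for D/D). How the 2 libraries from 1 ram and position arose is not stated in the sources used here.

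All rams were adult and were sampled after slaughter, with punch biopsies of skin from base, middle and tip. The alleles differ by an insertion in the HOXB13 promoter, which is part of the derived allele D in long-tailed rams and is missing from the ancestral allele A. The D/D tip and the D/D base thus share the D/D genotype and, by their labels, differ in position. How tip and base samples were divided over RNA extraction and library preparation is not stated in the sources used here. The middle of the same 3 D/D tails (5 libraries) and the tips and bases of 4 A/A rams (16 libraries) served as the nearest comparisons.

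HOX genes code for transcription factors that give the cells of the embryo their place along the body axis. They lie in clusters named HOXA to HOXD, and genes from the end of a cluster with the high numbers act nearest to the tail. Fibroblasts of adult skin keep part of this code, and skin also varies along the body in its epidermis, fat, nerves, vessels and fibroblast types.

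The D/D tip libraries held 10620029 to 18581064 counts and the D/D base libraries 10429322 to 19804436, and the ram sums 25019844 to 35949658 for tips and 24189287 to 32516393 for bases. The 2 libraries of each D/D tip and base differed by more than sampling noise, so their counts were not copies of each other. Whether both were made from the same RNA cannot be told from this. The labelled tissue carried the markers of skin. Summed over the 4 keratinocyte markers used, among them KRT5 and KRT14, the CPM values (counts scaled to the TMM-normalised library total) were 17210 to 40850 in tip skin and 12230 to 21610 in base skin. The 6 markers of dermal fibroblasts, among them COL1A1 and DCN, summed to 5719 to 12840 CPM at the tip and 10090 to 17150 CPM at the base.

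Most genes that differed with position were lower at the tip. Of 19029 genes tested, 19 (0.0998%) were called differentially expressed (a change beyond 1 on the log2 scale either way, with an adjusted p no larger than 0.01), and 17 of these were lower at the tip. The 2 that were higher were HOXA13, a HOX gene of the tail end of its cluster, and SCUBE3, a secreted protein of the cell surface that takes part in signalling by growth factors. At an adjusted p under 0.05, which is the meaning of rose and fell in what follows, 23 genes (0.121%) rose and 88 (0.462%) fell. Of these 111 genes, 76 have a gene symbol and 35 only a LOC number. At an unadjusted p under 0.05, 905 genes were higher and 1441 lower at the tip.

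All 111 genes moved in the same direction in each of the 3 rams. The tips lay above all bases for 22 of the 23 genes that rose and below all bases for 83 of the 88 that fell, whereas among all genes tested the tips lay above all bases for 7.58% and below them for 8.49%. These counts come from the same values as the calls and only describe them. ZFP42, a zinc finger gene, was the exception among the genes that rose, and ACSM1 and ALB were among the exceptions that fell. The size of the change is given per ram by its median. The median log2 difference of the genes that fell was -1.69 in ram 871787, -1.41 in ram 871868 and -1.56 in ram 871869, and that of the genes that rose was 1.34, 1.21 and 1.12 in the same order. Over all genes tested, which are not independent replicates, the tip-to-base differences of the rams had correlations of 0.447, 0.452 and 0.344, as a description of these libraries.

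The calls rested on all 3 rams. With any 1 of them left out, no gene passed an adjusted p of 0.01 with the fold limit, and few passed 0.05. Without ram 871787 these were ACSM2B and LOC121818687, which both fell, without ram 871868 FAM180A (log2 fold change -1.84), and without ram 871869 HOXA13 and PRG4, which were higher, and HOXC5 and LOC101123627, which were lower. FAM180A and PRG4 had not passed with all rams and were chosen after their values were seen. A test on single values, which permutes tip and base within 3 rams, could not give a p below 0.25. Reducing the fit to 2 D/D rams left the direction of all 111 genes as it was, whichever ram was omitted. Each of the 3 rams already moved in that direction, so this could hardly come out otherwise and adds no support.

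**Figure D1:**
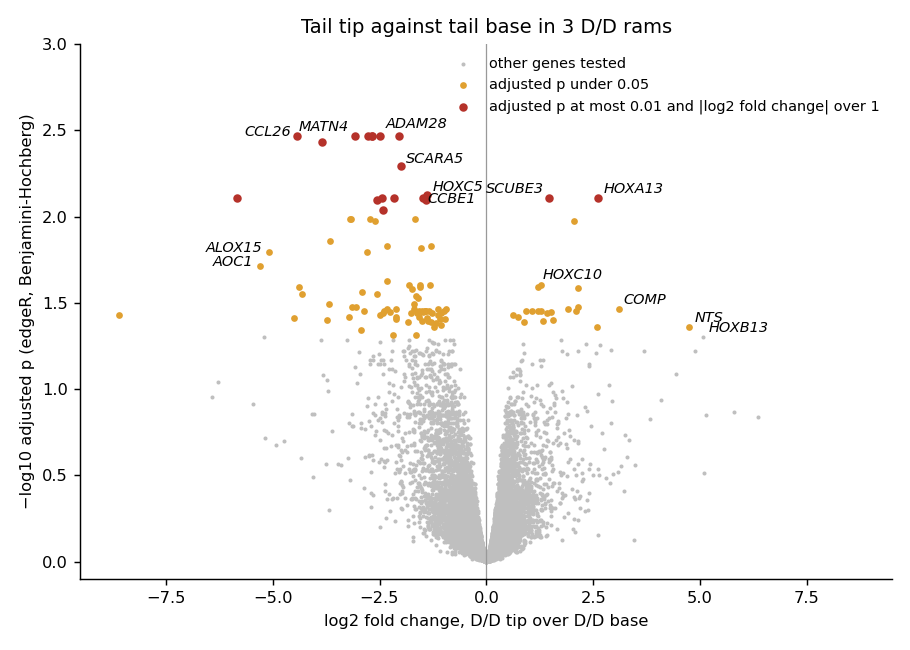
Log2 fold change of the D/D tip over the D/D base (horizontal axis) against the −log10 of the adjusted p (vertical axis) for the 19029 genes tested, 1 point per gene, with the 19 differentially expressed genes in red and the other genes with an adjusted p under 0.05 in orange. Red and orange points are more frequent on the left, the side of genes lower at the tip (88 genes), than on the right (23 genes).

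HOXA13 (chromosome 4, 70422486 to 70435575 in ARS-UI_Ramb_v3.0) was at 4.26, 7.77 and 3.42 CPM at the tips of rams 871787, 871868 and 871869, against 0.328, 0.864 and 1.3 CPM at their bases. The lowest tip lay well above the highest base. This was a log2 fold change of 2.60 (standard error 0.39) with an adjusted p = 0.00778 in edgeR. SCUBE3 (chromosome 20, 9325989 to 9362901) was at 32.6, 39.4 and 43.1 CPM at the tips, against 8.69, 15.2 and 18.9 CPM at the bases, a log2 fold change of 1.46 (standard error 0.22). The rams kept the same order at both positions, with ram 871787 lowest and ram 871869 highest.

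Among the genes that fell with an adjusted p of at most 0.01, IGF2BP2, an RNA-binding protein named for its binding of IGF2 mRNA, showed little spread between rams. Its values were 3.62, 3.59 and 5.23 CPM at the tips and 26.5, 26.1 and 25.1 CPM at the bases (chromosome 1, 202185501 to 202349278; log2 fold change -2.69, standard error 0.34). ADAM28, a metalloprotease of the cell surface, was at 0.681, 0.645 and 0.654 CPM at the tips and at 3.69, 3.29 and 4.39 CPM at the bases. MATN4, a matrilin that links filaments of the extracellular matrix, was at 0.809, 0.477 and 0.654 CPM at the tips, against 6.03, 5.38 and 4.58 CPM at the bases. In none of these 3 genes did tips and bases come near each other.

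CCL26, a chemokine that attracts eosinophils in humans, was at 0.468, 0.589 and 0.327 CPM at the tips, against 13.4, 6.08 and 12.2 CPM at the bases. Its log2 fold change of -4.43 (standard error 0.58) was the strongest fall among the differentially expressed genes with a symbol. SCARA5, a scavenger receptor that takes up ferritin, was at 17.2, 19.6 and 14.6 CPM at the tips and at 90.0, 56.8 and 61.6 CPM at the bases. Its change was again larger than the spread between rams, with a log2 fold change of -2.01 (standard error 0.28).

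The others were ZNF385D, a zinc finger gene (-2.04), CDH4, the retinal cadherin (-2.15), CCBE1, a secreted protein needed for lymphatic vessel growth (-1.49), LVRN, an aminopeptidase (-1.40, but -0.46 and not called with library 1 of each ram alone), CD300LG, a receptor of capillary endothelium (-2.57), and HOXC5 (-1.38), all with adjusted p-values of 0.00342 to 0.00798. The 5 differentially expressed genes with a LOC number all fell, LOC132660014 down to 3 counts over the 3 tips, against 175 counts at the bases (CPM ratio 0.0172, exact 95% interval 0.00351 to 0.051 for counting error only).

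**Figure D2:**
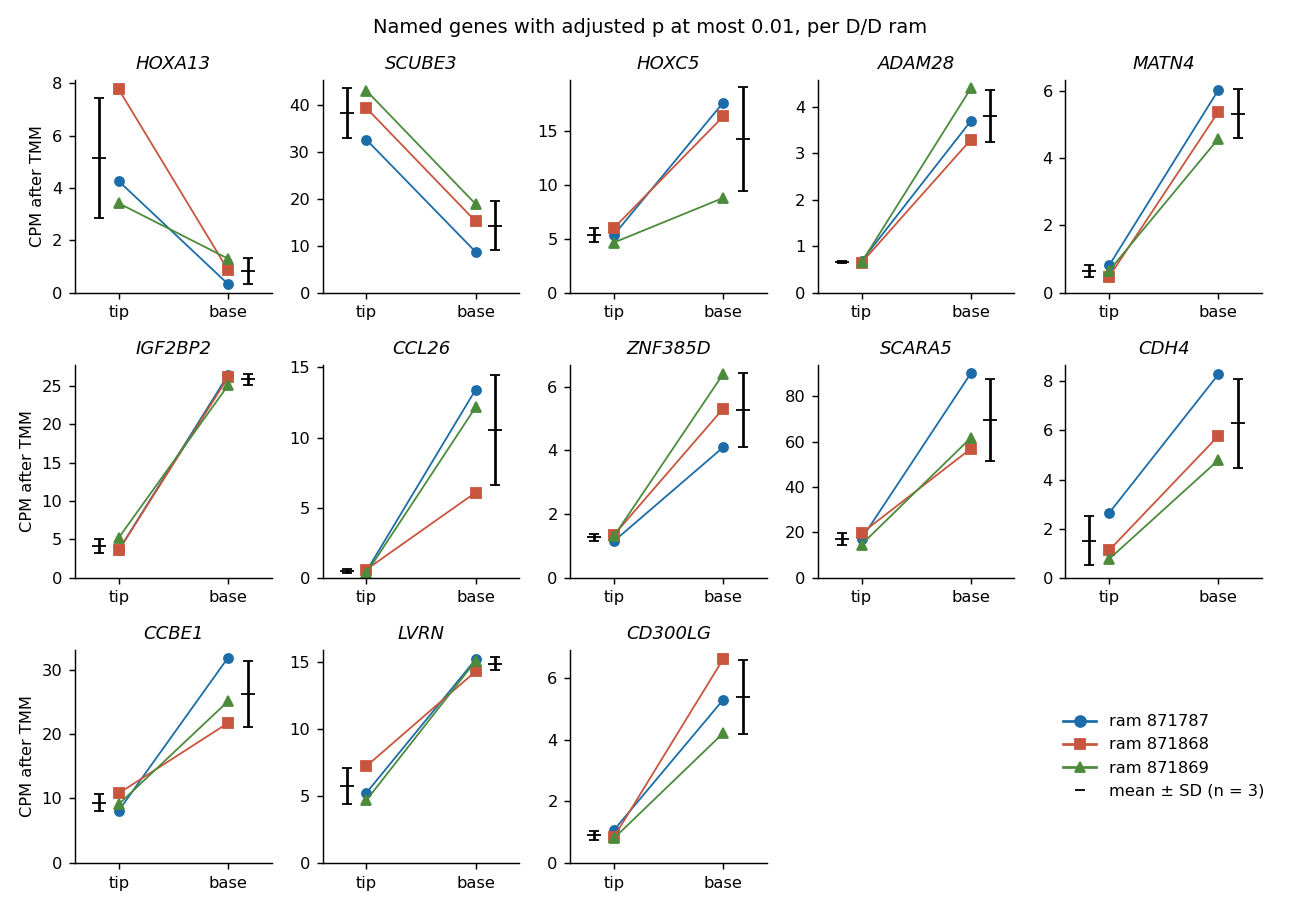
CPM after TMM normalization (vertical axes, from 0) at the tip (left) and base (right) for 13 differentially expressed genes with a symbol, where each D/D ram has its own symbol and line and black bars give mean ± SD over the 3 rams. HOXA13 and SCUBE3 slope down from tip to base in every ram and the other 11 genes slope up, with the 3 ADAM28 tips between 0.645 and 0.681 CPM.

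Of the HOX genes called at the D/D tip, those from the tail end of the code rose and those from its middle fell. Of 38 HOX genes counted, 34 were tested and 5 were called. Of the 14 tested genes of paralog groups 9 to 13, those of the tail end, 3 rose and none fell, namely HOXA13, HOXA10 and HOXC10. Of the 11 of groups 5 to 8, 2 fell and none rose, namely HOXC5 and HOXC6. None of the 9 tested genes of groups 1 to 4 passed the test. With DESeq2 on the same ram sums 4 genes of groups 9 to 13 rose, 3 of groups 5 to 8 fell and none of groups 1 to 4 was called. Over all genes tested, 0.121% rose and 0.462% fell. The median log2 fold change was 0.26 in groups 9 to 13, -0.15 in groups 5 to 8 and -0.14 in groups 1 to 4, against -0.02 over all genes tested. At the A/A tip 7 genes of groups 9 to 13 and 2 of groups 5 to 8 rose and none of either fell. The A/A medians were 0.68 in groups 9 to 13, 0.25 in groups 5 to 8 and 0.40 in groups 1 to 4, so the fall in groups 5 to 8 was not seen there. Without ram 871868 the median of groups 5 to 8 turned to 0.05, and that of groups 9 to 13 lay between 0.03 and 0.55 with 1 ram left out.

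By cluster, the called genes lay in HOXA and HOXC. In HOXA, on chromosome 4, the log2 fold changes were near 0 from HOXA2 (-0.04) to HOXA4 (-0.08) and above 0 in all genes from HOXA5 on. HOXA10 was at 13, 17 and 10.9 CPM at the tips and 4.43, 8.87 and 6.5 CPM at the bases (log2 fold change 1.06, adjusted p = 0.0351 from edgeR). HOXA11, which lies between HOXA10 and HOXA13, was at 1.16 with an adjusted p = 0.185 from edgeR. HOXA5 and HOXA6 had values of 0.63 and 0.82, which did not pass either.

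HOXC, on chromosome 3, held both directions. HOXC5 was at 5.37, 6.0 and 4.65 CPM at the tips and 17.6, 16.3 and 8.79 CPM at the bases. HOXC6 was at 11.8, 9.92 and 8.94 CPM at the tips and 20.2, 21.5 and 17.8 CPM at the bases (log2 fold change -0.96, adjusted p = 0.0394 from edgeR). HOXC10, farther along the cluster, was at 10.9, 11.9 and 13.6 CPM at the tips and 4.96, 5.55 and 5.29 CPM at the bases (log2 fold change 1.20, adjusted p = 0.0257 from edgeR). HOXC8 and HOXC9 lie between them and had log2 fold changes of -0.53 and -0.51 that did not pass the test. HOXC13, which is active in hair follicles, was at 138.1, 168.5 and 225.2 CPM at the tips and 111.1, 195.1 and 195.6 CPM at the bases, so that its groups overlapped.

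HOXB13, the gene of the genotype, had few counts in D/D skin. The tips held 25, 17 and 7 counts (1.07, 0.477 and 0.254 CPM), against 0, 0 and 1 at the bases, a ratio of summed CPM of 49.1 (exact 95% interval 8.41 to 1977, for counting error only). The fitted difference missed the threshold with an adjusted p = 0.0501 from edgeR, and passed it with 6 of the 16 other settings that gave a value. None of the other HOXB genes passed the test, with log2 fold changes between -0.65 for HOXB9 and 0.47 for HOXB8. None of the 6 HOXD genes tested passed it, with values between -0.64 for HOXD8 and -0.04 for HOXD10.

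**Figure D3:**
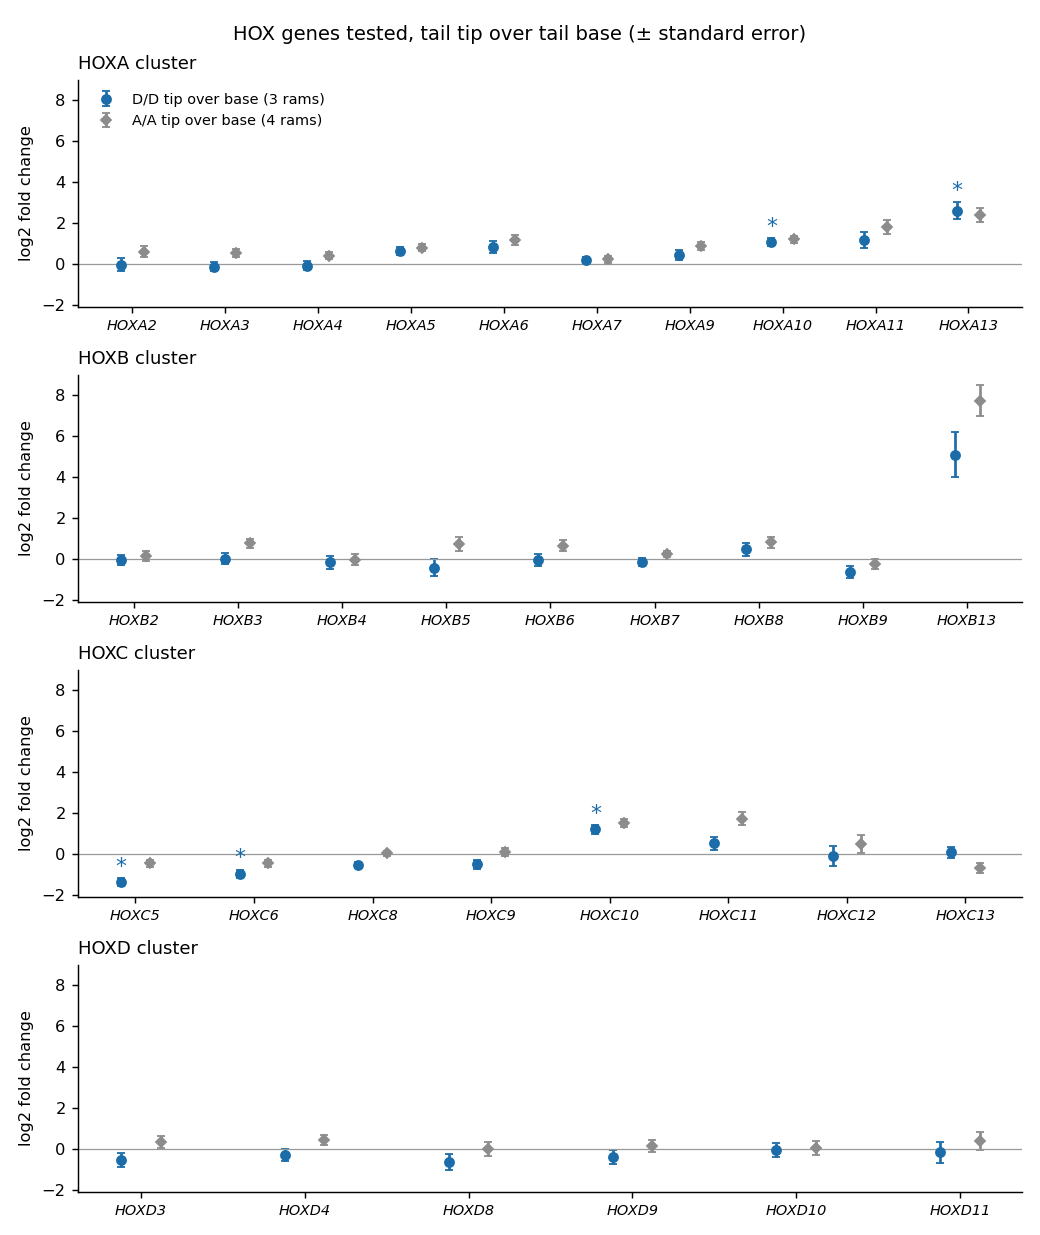
Log2 fold change of the tip over the base (vertical axes, ± standard error) for 33 of the HOX genes tested, by cluster and in order of paralog group, in D/D (blue circles, 3 rams) and A/A (grey diamonds, 4 rams), with an asterisk where the D/D value had an adjusted p under 0.05. The D/D asterisks stand at HOXA10, HOXA13 and HOXC10 above 0 and at HOXC5 and HOXC6 below 0.

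The study checked 7 genes of its RNA-seq by a second method, and all were chosen on these samples. Besides HOXA13 and HOXB13 they include SP8, a transcription factor of outgrowing limb buds, which had 7, 16 and 9 counts at the tips and 0 at every base, at least 10.7-fold higher against a floor of 3 counts over the bases. The adjusted p of SP8 was 0.146 in edgeR, above the threshold. Of 45 tested transcription factors of limbs and appendages, 0 rose and SP9 fell (log2 fold change -2.33), with a median of -0.02. LOXL4, a lysyl oxidase-like enzyme that crosslinks matrix fibres, fell and was at 1.70, 2.08 and 0.654 CPM at the tips, against 7.92, 6.31 and 8.57 CPM at the bases. AGT, angiotensinogen, had a log2 fold change of -2.11 with an adjusted p = 0.21 from edgeR.

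ALOX15, a lipoxygenase that makes lipid mediators from fatty acids, fell to 3, 1 and 2 counts at the tips, against 26, 32 and 237 at the bases. Tips and bases were apart, but ram 871869 held most of the base counts. ACSM2B, a synthetase that activates medium-chain fatty acids, fell to 7, 12 and 0 counts at the tips, against 13, 456 and 50 at the bases, where ram 871868 stood out.

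Genes of the extracellular matrix were called in both directions. Of 25 tested genes for tenascins, matrilins and other matricellular proteins, 2 rose and 2 fell. TNC, tenascin C, which is found in tendon and healing wounds, was at 86.3, 97.1 and 64.0 CPM at the tips, against 24.9, 35.1 and 25.7 CPM at the bases (log2 fold change 1.52, adjusted p = 0.0359 from edgeR). TNXB, the related tenascin X of dermal collagen, went the other way, with 24.2, 30.5 and 28.5 CPM at the tips and 230.5, 143.0 and 142.8 CPM at the bases (log2 fold change -2.59, adjusted p = 0.0106 from edgeR). COMP, a protein of cartilage and tendon matrix, rose to 18.4, 32.9 and 16.9 CPM at the tips, against 2.17, 4.32 and 1.70 CPM at the bases.

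Of 28 tested genes of tendon, cartilage and joint, COMP rose and CHRDL1, an inhibitor of bone morphogenetic proteins, fell. Their median log2 fold change was 0.27, and 0.09 without ram 871868. TNMD, a tendon protein, was at 3.45, 9.31 and 4.11 CPM at the tips and 1.31, 2.09 and 1.42 CPM at the bases, with an adjusted p = 0.0522 from edgeR, and PRG4, the joint lubricant lubricin, had a log2 fold change of 2.33 (adjusted p = 0.0547 from edgeR). The summed markers of tendon, SCX and TNMD, were higher at the tip in all 3 rams (3.88 to 10.1 CPM at the tip, 1.52 to 2.29 CPM at the base), and their part in the change of COMP was not tested.

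Of 23 genes of elastic fibres and their crosslinking, LOXL4 and EMILIN2, an elastin-associated glycoprotein, fell and none rose, and 20 had negative log2 fold changes (median -0.46, or -0.30 without ram 871787). Of all 19029 genes tested, 9909 had negative log2 fold changes. None of 39 tested collagen genes passed the test (median -0.02), and 7 of them had an unadjusted p under 0.05, 5 higher and 2 lower. DESeq2 on the ram sums called none of the collagen genes either. ADAM28 was the 1 gene that fell among 51 metalloproteases and their inhibitors, and none rose.

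Adventitial fibroblasts sheathe vessels and lie deep in the dermis. Of 23 of their genes tested, SCARA5, PI16 and GPX3 fell and none rose, 22 had negative log2 fold changes, and the median was -0.81 (-1.05, -0.36 and -0.94 in rams 871787, 871868 and 871869). The tips lay below all bases for 14 of the 23 genes, against 8.49% of all genes tested. Of all 19029 genes tested, 9909 had negative log2 fold changes. The list, like the other lists here, was chosen with earlier results of these data known, so its counts only describe it. PI16, a peptidase inhibitor that marks these fibroblasts, was at 38.2, 71.7 and 37.7 CPM at the tips and 129.2, 124.9 and 170.6 CPM at the bases. GPX3, a secreted glutathione peroxidase, was at 57.5, 83.6 and 83.0 CPM at the tips and 256.1, 157.1 and 187.7 CPM at the bases. SFRP4 and PCOLCE2, a Wnt antagonist and an enhancer of collagen processing, had values of -2.73 and -2.52 with adjusted p-values of 0.0674 and 0.0624 from edgeR.

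Summed markers of cell types were compared with no test. Of 19 sets, 9 were lower at the tip in all 3 rams and 3 were higher, whereas of the 19029 single genes tested 4023 were lower in all 3 rams and 3805 higher. Keratinocyte and tendon markers and KRT33A, the 1 wool follicle marker in the file, were higher in each ram, and dermal fibroblast markers were at 6436, 12840 and 5719 CPM at the tips, against 10090, 15850 and 17150 CPM at the bases. Adipocyte markers (ADIPOQ, PLIN1 and LEP) summed to 20.01, 63.4 and 26.5 CPM at the tips, against 260.9, 402.0 and 194.5 CPM at the bases. In such bulk samples, fewer cells of a type and less RNA per cell cannot be told apart, and the part of these values in the genes that rose or fell was not tested. Markers of cartilage and bone stayed between 1.85 and 6.98 CPM at the tip and 3.28 and 5.35 CPM at the base. The 3 sweat gland markers (AQP5, KRT8 and KRT18) were lower in each ram, but a longer list was mixed. Of 19 tested genes of sweat gland and secretory epithelium 0 passed the test, with 8 positive and 11 negative log2 fold changes. Their median was -0.27, and 0.19 within ram 871787.

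**Figure D4:**
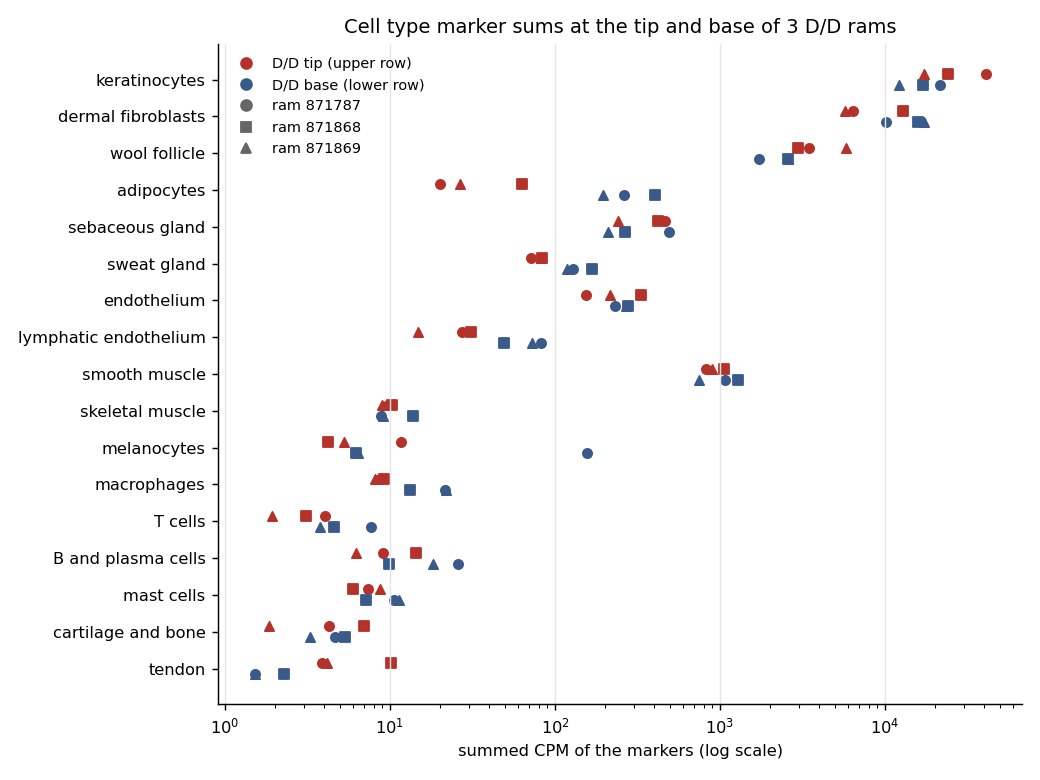
Summed CPM (horizontal axis, log scale) of the markers of 17 cell types at the tip (red, upper row) and base (blue, lower row) of 3 D/D rams, with 1 symbol per ram. Red symbols lie to the left of the blue symbols for adipocytes (20.01 to 63.4 CPM at the tip and 194.5 to 402.0 CPM at the base), sweat gland, lymphatic endothelium and macrophages, and to the right for tendon and wool follicle, without overlap; red blood cells are left out because 1 tip had no count.

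Of 25 adipocyte genes tested, PCK1, an enzyme that supplies glycerol for fat storage, fell (0.213, 0.14 and 0.254 CPM at the tips, 2.79, 1.16 and 2.01 CPM at the bases) and none rose. The median was -0.61, 19 of the 25 had negative log2 fold changes and 6 positive ones, and the tips lay below all bases for 11 genes. Of all 19029 genes tested, 9909 had negative log2 fold changes, and tips lay below all bases for 8.49%. ADIPOQ, the hormone adiponectin, was at 16.3, 56.7 and 23.3 CPM at the tips and 228.5, 377.2 and 177.3 CPM at the bases, with an adjusted p = 0.0747 from edgeR. FABP4, a fatty acid carrier, and DGAT2, an enzyme of triglyceride synthesis, had log2 fold changes of 0.72 and 0.49 that did not pass the test (both named after their values were seen). DESeq2 on the ram sums called 6 of the list lower and none higher.

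ACSM5, ACSM2B and ACSM1, genes for medium-chain acyl-CoA synthetases that lie near each other on chromosome 24, all fell. ACSM1 was at 33.0, 40.2 and 4.36 CPM at the tips and 69.3, 139.7 and 21.3 CPM at the bases. It fell within each ram, although the rams differed so much that the tips and bases overlapped. ACSM5 was at 3.79, 2.30 and 2.98 CPM at the tips and 6.64, 10.1 and 9.25 CPM at the bases. They were the 3 genes that fell among 41 tested genes of fatty acid oxidation and acyl-CoA synthetases, whose median was -0.01. None of 34 tested genes of fatty acid synthesis and elongation passed the test, of which 7 were higher and 0 lower at an unadjusted p under 0.05, and DESeq2 on the ram sums called 1 of them higher. These genes are closely related in sequence, and how the counting divided reads between them is not stated in the sources used here.

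The chemokine and immune genes that passed the test were lower at the tip. Of 38 tested chemokines and their receptors, CCL26, CCL24 and ACKR2 fell and none rose, with a median of -0.72 and tips below all bases for 12 genes. Among all genes tested, tips lay below all bases for 8.49%. CCL24, another chemokine for eosinophils, was at 1.41, 1.12 and 0.763 CPM at the tips and 8.08, 3.16 and 7.52 CPM at the bases. It lies beside CCL26 on chromosome 24. ACKR2, a receptor that removes chemokines, was at 3.45, 4.85 and 7.30 CPM at the tips and 13.3, 9.43 and 14.6 CPM at the bases.

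AOC1, the enzyme that degrades histamine outside cells, fell to 0.085, 0.056 and 2.40 CPM at the tips, against 24.6, 7.11 and 36.9 CPM at the bases (log2 fold change -5.31, standard error 0.92, adjusted p = 0.0194 from edgeR). With CCL26 and CCL24 it made up the 3 genes that fell among 18 tested genes of mast cells, eosinophils and histamine (median -0.51). The mast cell markers KIT and CPA3 summed to 6.0 to 8.72 CPM at the tip and 7.14 to 11.4 CPM at the base, and were lower at the tip in all 3 rams.

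Of 29 tested genes of macrophages and dendritic cells, CSF1R, the receptor that keeps macrophages alive, fell, and the median was -0.56. CSF1R was at 16.5, 18.3 and 15.4 CPM at the tips and 45.5, 26.5 and 35.7 CPM at the bases. Of the macrophage markers, CD68 was listed at 0 throughout and C1QA was at 8.73, 9.14 and 8.10 CPM at the tips and 21.6, 13.3 and 21.7 CPM at the bases. T, NK, B and plasma cell genes had a median of -0.56 (-0.34 without ram 871869) over 32 genes, of which 0 passed the test, 5 were lower at an unadjusted p under 0.05 and 1 was lower with DESeq2.

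Among 40 endothelial genes CD300LG and LYVE1 fell and none rose. LYVE1, a hyaluronan receptor of lymphatic endothelium and some macrophages, was at 6.35, 4.37 and 2.87 CPM at the tips and 46.9, 14.7 and 49.9 CPM at the bases. VEGFC, the growth factor of lymphatic vessels, fell by 1.29 on the log2 scale, and CCBE1, which is needed for its activation, by 1.49. PROX1, the transcription factor that defines lymphatic endothelium, was at 4.60, 4.91 and 1.71 CPM at the tips and 4.72, 4.15 and 2.97 CPM at the bases, so that its groups overlapped. Markers of all endothelium (PECAM1, CDH5 and VWF) overlapped as well, with sums of 153.8 to 334.3 CPM at the tip and 232.0 to 277.2 CPM at the base.

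Genes of nerve and glia moved both ways. Of 33 tested genes of Schwann cells, myelin and neurons, 2 fell, among them MBP, a protein of myelin, and NTS rose. MBP was at 4.00, 2.30 and 2.07 CPM at the tips and 8.28, 5.55 and 4.39 CPM at the bases. SOX10, the transcription factor of Schwann cells and melanocytes, had a log2 fold change of -0.94 with an adjusted p = 0.358 from edgeR. NTS, the neuropeptide neurotensin, had 96, 58 and 222 counts at the tips, against 0, 7 and 6 at the bases, a ratio of summed CPM of 29.0 (exact 95% interval 16.7 to 54.9 for counting error only).

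Of 58 tested genes of axon guidance and neural adhesion, UNC5C, a receptor for netrins, and LSAMP, a cell adhesion protein, rose, and CDH4 and OMG fell. UNC5C was at 2.09, 1.96 and 1.31 CPM at the tips and 0.287, 0.565 and 0.526 CPM at the bases. OMG, a myelin glycoprotein that limits the growth of neurites, was at 2.09, 8.86 and 1.96 CPM at the tips and 15.3, 36.9 and 21.8 CPM at the bases, with ram 871868 highest at both positions.

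Of the epidermal keratinocyte genes 27 of 33 had positive log2 fold changes, but 0 passed the test, against 5 higher and 0 lower at an unadjusted p under 0.05, and DESeq2 called 3 higher. Their median was 0.32, and 9120 of all 19029 genes tested had positive log2 fold changes. KRT2, a keratin of the upper epidermis, was at 1212, 1006 and 193.5 CPM at the tips and 64.5, 79.5 and 20.1 CPM at the bases, with an adjusted p = 0.0603 from edgeR. Of 28 wool follicle genes 0 passed the test or an unadjusted p of 0.05, and DESeq2 called none, with a median of 0.18 that was 0.02 without ram 871869 and 0.42 without ram 871868. KRT33A, a keratin of the wool fibre whose reads may be shared with closely related keratins, was at 3470, 2953 and 5767 CPM at the tips and 1719, 2595 and 2571 CPM at the bases, with a log2 fold change of 0.80 and an adjusted p = 0.615 from edgeR.

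Melanocyte markers set 1 sample apart. PMEL, DCT and TYRP1 summed to 11.7, 4.21 and 5.23 CPM at the tips and 155.6, 6.21 and 6.37 CPM at the bases, the high value being the base of ram 871787. Of 19 tested melanocyte genes none fell and GPNMB, which is also made by macrophages, rose (187.0, 224.3 and 262.8 CPM at the tips, 97.3, 106.1 and 152.3 CPM at the bases).

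Several other genes rose. HK2, a hexokinase that starts glycolysis, was at 45.1, 35.3 and 60.7 CPM at the tips and 21, 16.9 and 23.0 CPM at the bases, and was the 1 gene that passed the test among 24 genes of the hypoxia response. CA4, a carbonic anhydrase, was at 11, 11.3 and 6.39 CPM at the tips and 5.25, 1.03 and 0.464 CPM at the bases. MAP6, which stabilises microtubules, TNNT2, the troponin T of heart muscle, PPP2R2C, a subunit of a phosphatase, SLC16A9, a transporter, and GPR21, an orphan receptor, rose by log2 fold changes of 1.32 to 2.14. KIF13A, DGKE and DENND2C rose by less than 1 on the log2 scale.

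Other genes that fell include GREB1, a cofactor of steroid hormone receptors, with 1.11, 0.953 and 0.327 CPM at the tips and 5.62, 5.58 and 10.2 CPM at the bases. ESR1, the oestrogen receptor, was at 14.4, 14.6 and 5.74 CPM at the tips and 25.2, 26.4 and 44.9 CPM at the bases with an adjusted p = 0.0631 from edgeR. The mucus protein FCGBP, the kinases STK32A and NRK, the enzymes GFPT2 and NNMT, the transcription factor SP9, the potassium channel KCNA6 and PROC, the anticoagulant protein C, fell by 2.12 to 3.15 on the log2 scale. The protease inhibitor A2M, serum albumin (ALB), the complement activator properdin (CFP), the microfibril-associated ADAMTSL4, the adhesion receptor ADGRD1, LGI1, PRDM8, CFAP251, TPPP3, SH2B2 and NOSTRIN fell by 1.07 to 1.83, and SIAE and PLPP3 by less than 1.

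The mid-tail of the same rams lay between base and tip for 110 of the 111 genes by the fitted log2 fold changes. These genes were chosen by their values at the tip, so this count only describes them. The log2 fold changes of the mid-tail share the base libraries with those of the tip and are given side by side, with no test of the resemblance. None of the 19029 genes passed an adjusted p of 0.05 at the D/D mid-tail with edgeR, while 1289 had an unadjusted p under 0.05. The study did call genes there, with DESeq2 and its own thresholds. Other settings were not compared for the mid-tail, and its 3 ram sums came from 5 libraries, so the count does not show that nothing changed. HOXC10 had log2 fold changes of 1.16 (mid-tail) and 1.20 (tip), and HOXA13 of 2.42 (mid-tail) and 2.60 (tip), so that the mid-tail was close to the tip. HOXA10 had 0.36 (mid-tail) and 1.06 (tip), and IGF2BP2 had -0.87 (mid-tail) and -2.69 (tip), both closer to the base. CCL26 had -1.13 (mid-tail) and -4.43 (tip), whereas ACSM2B had -3.75 (mid-tail) and -4.32 (tip).

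The A/A rams, which share no library with the D/D rams, were compared in the same fit. At the A/A tip 158 genes (0.83%) rose and 150 (0.788%) fell. Of the 23 genes that rose at the D/D tip 11 also rose at the A/A tip, and of the 88 that fell 40 also fell, so that 51 genes were shared, 45.9% of the 111 called in D/D and 16.6% of the 308 called in A/A. None was called in opposite directions. All 23 genes that rose in D/D had positive log2 fold changes in A/A, and 86 of the 88 that fell had negative ones. The change was smaller in A/A for 99 of the 111 genes, which were chosen by their D/D values. Among genes with changes of like size, IGF2BP2 had log2 fold changes of -2.69 in D/D and -2.69 in A/A, COMP of 3.10 and 2.96, HOXC10 of 1.20 and 1.49 and TNC of 1.52 and 1.90, with D/D first.

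Whether a change differed between the genotypes was tested as an interaction. It passed for 0 of 19029 genes at an adjusted p under 0.05 with edgeR (smallest adjusted p = 0.334), against 1159 at an unadjusted p under 0.05, with 30 genes for DESeq2 and 0 for limma-voom on the same ram sums. ADAM28 fell by 2.50 on the log2 scale in D/D, whereas its value in A/A was -0.34, a difference of -2.16 (standard error 0.40, adjusted p = 0.374 from edgeR). HOXC5 had -1.38 in D/D and -0.46 in A/A. For neither of these is a difference between the genotypes shown.

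**Figure D5:**
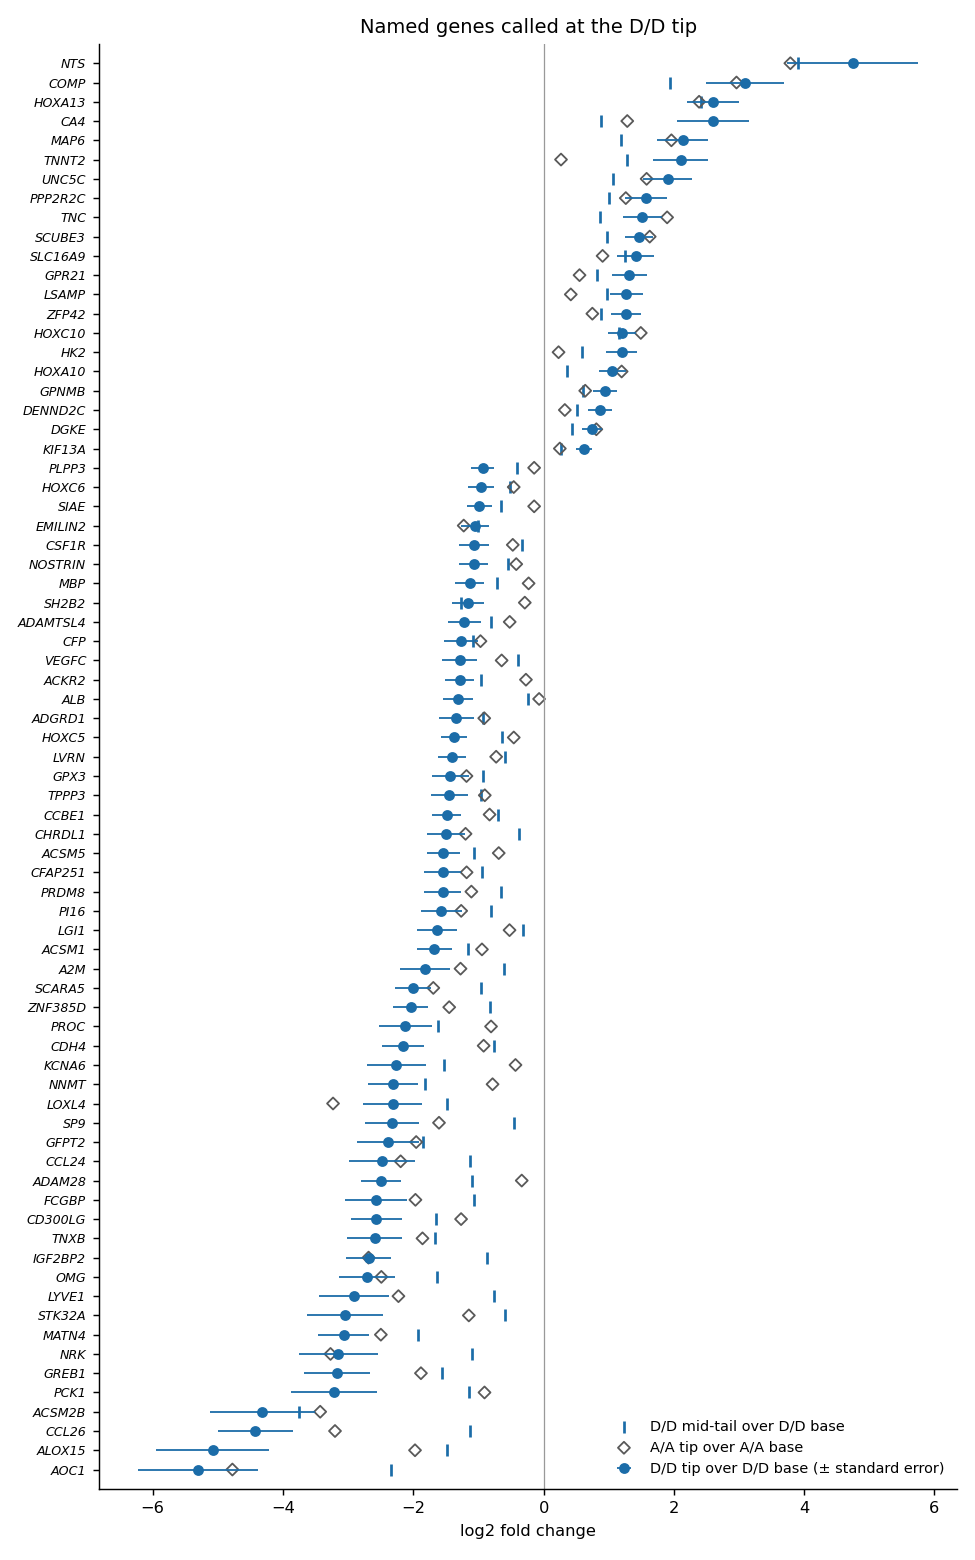
Log2 fold changes (horizontal axis) of 74 genes with a symbol that were called at the D/D tip, 1 gene per row, for the D/D tip over the D/D base (blue circles, ± standard error), the D/D mid-tail over the D/D base (blue bars) and the A/A tip over the A/A base (open diamonds). All 74 diamonds lie on the same side of 0 as the circles, while for some genes such as ADAM28 (-2.50 in D/D and -0.34 in A/A) they lie far from them.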

How the data were processed

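RNA selected on oligo(dT) beads from tail skin was made into CorALL libraries, sequenced, checked with FastQC 0.11.9 and aligned by the authors with ContextMap, which ran BWA on ARS-UI_Ramb_v3.0. The authors then counted reads by strand for each RefSeq gene with featureCounts and deposited raw counts for 31182 genes. Coordinates came from a RefSeq table of this build, which held 28742 of them. For the 14 tip columns, which the authors deposited as whole counts made in the same way, the unit was entered as estimated count, since an automatic check reads a word in their names as a position, and rounding changed nothing. 0 columns of values were left out.

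Libraries of the same ram and position were added up, and all 21 ram sums entered 1 quasi-likelihood fit in edgeR 4.0.16 (R 4.3.3) after TMM scaling and the low-count filter by group, with the ram as a block and genotype by position terms. P-values were adjusted after Benjamini-Hochberg over all genes tested. The 3 D/D rams gave both positions, and the deviations of tip and base from their group means had correlations of 0.585, 0.361 and 0.49 within rams. Genes are named by rule. These are genes with a symbol called at 0.01, the 15 largest rises and falls of at least 1 CPM at an adjusted p under 0.05 and the same direction in all 3 rams, HOX genes, the genes the study checked, up to 4 members of a list by smallest p, and the 5 genes with the smallest p for the genotype difference. Remaining called genes with a symbol were added after their values were seen. A few genes that fall under the rule are not reported here. The comparison, the gene lists and the tests were chosen with earlier results of these data known. Nothing states that the 2 libraries of a ram are separate samples.

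The test was checked on counts simulated from its own fitted model, which cannot show how well that model holds for these data. Alternatives used were limma-voom (limma 3.58.1) and DESeq2 1.42.0, other normalizations and filters, no block, D/D samples alone, single libraries and each D/D ram left out. A filter by design matrix was added after the data were seen.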

Additional observations from a re-analysis of the deposited data

Results flagged for a closer look

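In 6 of the named genes all 3 D/D rams and all 4 A/A rams moved in opposite directions from base to tip. Among all genes tested this was so for 1.72%, so that a few such genes among many are no result on their own. The difference of the D/D over the A/A change on the log2 scale was -4.59 for LOC106990933, -3.63 for CCDC180, -2.56 for GPR158, -1.06 for N4BP2L1, -1.62 for CCL21, a chemokine of lymphatic vessels, and -0.85 for PER3, a clock gene. LOC106990933, CCDC180, GPR158 and N4BP2L1 were named because of a small p for this difference. None passed the adjustment over all genes, with adjusted p-values from edgeR of 0.334 for LOC106990933, 0.374 for CCDC180, 0.469 for GPR158, N4BP2L1 and CCL21 and 0.554 for PER3. Groups of 3 rams were not tested for single samples far from the others.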

How the results depend on the processing

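The number of calls differed widely between settings. At an adjusted p of at most 0.01 with the fold limit, 2 genes were higher and 17 lower. DESeq2 on ram sums gave 35 and 165, limma-voom 1 and 7, library totals 1 and 15, and no filter on low counts 4 and 33. The added filter by design matrix gave 3 and 21. Fitting D/D tips and bases alone gave 25 and 53, all D/D sums 41 and 118, and single libraries blocked by ram 50 and 180, or 50 and 174 with the library number as a further block. DESeq2 on single libraries gave 85 and 282. Library 1 alone and library 2 alone gave 0 and 0, no replicate block 0 and 0, and leaving out 1 ram 0 to 0 in each direction. At an adjusted p under 0.05, with 23 genes higher and 88 lower, the same settings gave 115 and 367 (DESeq2 on ram sums), 39 and 131 (no filter), 192 and 306 (D/D tips and bases), 337 and 508 (D/D sums), 316 and 599 (single libraries), 309 and 585 (with the library number as block), 466 and 791 (DESeq2 on single libraries), 8 and 18 (library 1), 0 and 16 (library 2) and 0 and 2 (no replicate block, where MATN4 and ZNF385D were left). Leaving out 1 ram gave 0 to 2 higher and 1 to 2 lower. For the difference between D/D and A/A, where edgeR called 0, DESeq2 on ram sums called 30, single libraries 23, the library number as block 18, DESeq2 on single libraries 94 and library 1 alone 1, and the other settings 0. The single-library fits count the 2 libraries of a ram and position as if they were independent samples within that ram.

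Directions held more often than calls. Among the 111 called genes, 110 or 111 kept their direction under each of the 18 settings, and all 111 were called with the same sign by DESeq2 on ram sums and 92 by limma-voom. None of the genes whose alternatives were tabulated changed sign where it was called. HOXC13, which was not called, changed sign in 2 settings. Library 1 of each ram alone gave medians of -0.19 for adipocyte, -0.51 for adventitial fibroblast, -0.20 for macrophage, -0.05 for mast cell, -0.39 for chemokine and -0.04 for wool follicle genes. Library 2 alone gave -0.88, -1.15, -0.84, -1.13, -0.92 and 0.40 in the same order, so these medians depend on the library. Library totals moved the median of all genes to -0.10, against -0.02 with TMM. The cause of the differences in the number of calls was not tested.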
